A study of Mus musculus with 16 samples.

Results

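Brown fat and epididymal fat of control mice were compared here through 5 of the 16 RNA-seq libraries of the series: 2 of brown adipose tissue (Ctrl BAT) and 3 of epididymal white adipose tissue (Ctrl eWAT). The study set these controls against mice that lack HuR, an RNA-binding protein encoded by Elavl1, in fat (HuR-FKO, Adipoq-Cre with HuR flox/flox). The control mice were littermates that carry the same HuR flox/flox alleles and no Cre, so both depots compared here have the floxed gene and neither has the transgene. All mice were 12 weeks old, no treatment is given in the labels, and the RNA of every library was pooled from 3 mice, so each value is already a mean over animals and the spread between libraries understates that between mice. Genes entered when they are protein-coding and their mean was above 1 FPKM (fragments mapped, scaled to transcript length and to all mapped fragments of the library) in Ctrl BAT, Ctrl eWAT or both, which gave 12458 of the 38371 gene IDs of the table. A log2 fold change is Ctrl BAT minus Ctrl eWAT of log2(FPKM + 1), which understates the change of weakly expressed genes, with its standard error (SE) and a two-sided p from limma adjusted by the Benjamini-Hochberg method over all 12458 genes. A call means an adjusted p under 0.05.

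Brown adipocytes burn fatty acids and glucose to make heat. Their mitochondria carry uncoupling protein 1 (Ucp1), which lets protons return across the inner membrane without ATP being made, and the process is switched on by noradrenaline from sympathetic nerves acting on beta-adrenergic receptors and cyclic AMP. White adipocytes of the epididymal depot hold a single large lipid droplet and secrete hormones such as leptin and adiponectin, and that depot is covered by mesothelium, while interscapular brown fat lies against the muscles of the back.

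The libraries of the 2 depots differed as a whole, and each result below has to be read beside these values. Transcripts encoded in mitochondria made up 39.2% and 37.7% of protein-coding FPKM in Ctrl BAT, against 13.5%, 13.9% and 12.1% in Ctrl eWAT. Genes above 1 FPKM numbered 10507 and 10784 in Ctrl BAT, against 12178, 12045 and 12121 in Ctrl eWAT. Low FPKM values placed the depth near 17100000 fragments in each Ctrl BAT library, against 9500000 to 13900000 in Ctrl eWAT, an uncertain estimate because 53.9% to 76.2% of such values fell on whole fragments. Summed over all gene types, including short non-coding RNAs, FPKM came to 719400 to 720400 in Ctrl BAT, against 3460000 to 5064000 in Ctrl eWAT, and the BAT libraries of both genotypes stood apart from white fat in the same way. Depot and any difference in library handling therefore cannot be told apart. Genes whose longest transcript has up to 500 bases had a median log2 fold change of -1.62 (99 genes), against medians between -0.73 and -0.52 in longer classes. The genes mt-Co1, mt-Co3, mt-Atp6 and mt-Atp8, which every cell uses, were listed at 0 in all 4 BAT libraries, so an exact 0 in this table can be a failed estimate. A gene at 0 in every library of a depot is given below as listed at 0, with no fold change, and there were 106 such genes in Ctrl BAT and 37 in Ctrl eWAT. They stayed in the fit, where 93 of the 106 and 36 of the 37 were called. Counts and group medians below therefore include them unless stated otherwise.

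Of the 12458 genes, 1200 were higher in Ctrl BAT (9.63% of genes tested) and 8226 were lower in Ctrl BAT (66% of genes tested). The median log2 fold change of all genes was -0.69, and the libraries of the 2 depots did not overlap for 84.7% of genes. This excess of lower genes depends on the scale. With libraries scaled by median ratios, a scaling that sets the typical gene equal, the median of all genes moved up by 0.70 and single genes by 0.0607 to 0.819, least where FPKM is low. On that scale 3233 genes were higher and 3322 lower in Ctrl BAT. The share of higher genes among calls was thus 12.7% as deposited and 49.3% after that scaling. All 1200 genes called higher as deposited were also higher after scaling, whereas 3322 of the 8226 lower ones remained. Below, gene groups are read against 9.63% higher, 66% lower and the median of -0.69, and counts after median-ratio scaling are given beside those as deposited. An exact rank test of 2 against 3 libraries cannot give a two-sided p below 0.2, so single genes rest on the limma fit.

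Genes that mark brown adipocytes were far higher in Ctrl BAT, as the label of the depot says. Of 40 measured brown adipocyte genes, 32 were higher and 2 lower in Ctrl BAT (median log2 fold change 2.37), and 35 were higher and 0 lower after median-ratio scaling. Ucp1 (ENSMUSG00000031710, mm10 chromosome 8, 83290352 to 83298452) had 1138 and 686 FPKM in Ctrl BAT, against 0.0995, 0.208 and 0.217 FPKM in Ctrl eWAT (log2 fold change 9.56, SE 0.214, adjusted p = 7.08e-07). The brown fat libraries thus carried Ucp1 at 5206 times the mean of the epididymal libraries, where it was near the limit of detection. Cidea, a lipid droplet protein abundant in brown adipocytes, had 1818 and 1570 FPKM in Ctrl BAT, against 6.54, 6.22 and 6.59 FPKM in Ctrl eWAT (log2 fold change 7.83, SE 0.123, adjusted p = 8.55e-08). Fabp3, a fatty acid binding protein of oxidative tissues, had 385 and 334 FPKM in Ctrl BAT, against 0.685, 0.417 and 0.415 FPKM in Ctrl eWAT (log2 fold change 7.9, SE 0.145, adjusted p = 2.19e-07). In neither gene did the 2 depots come near each other. In bulk tissue a difference of this kind can come from more brown adipocytes or from more RNA of the gene per cell, and these cannot be told apart.

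Other members of the brown program ranged from large to absent differences. Elovl3, an elongase of very long fatty acids, had 88.9 and 51.9 FPKM in Ctrl BAT, against 0.0428, 0.135 and 0 FPKM in Ctrl eWAT. Otop1, a proton channel, had 58 and 49.8 FPKM in Ctrl BAT, against 0.372, 0.13 and 0.0722 FPKM in Ctrl eWAT. Both were thus nearly silent in epididymal fat. Letmd1, an inner membrane protein of mitochondria, was 3.29 higher on the log2 scale, with 209.9 and 197 FPKM in Ctrl BAT, against 21.6, 17.9 and 20.6 FPKM in Ctrl eWAT. Ppargc1a, a coactivator of mitochondrial gene expression, had 6.86 and 7.24 FPKM in Ctrl BAT, against 0.862, 0.861 and 0.413 FPKM in Ctrl eWAT (log2 fold change 2.24, adjusted p = 6.20e-05 from limma). Its relative Ppargc1b had 8.96 and 7.56 FPKM in Ctrl BAT, against 0.793, 1.4 and 0.672 FPKM in Ctrl eWAT (log2 fold change 2.26, adjusted p = 8.77e-05 from limma). Prdm16, a transcriptional regulator of the brown fate, differed by much less, with 2.97 and 4.02 FPKM in Ctrl BAT, against 2.41, 1.21 and 2.31 FPKM in Ctrl eWAT (log2 fold change 0.61, SE 0.231, adjusted p = 0.0441), and it was not called without Ctrl BAT replicate 1, Ctrl BAT replicate 2 or Ctrl eWAT replicate 2 (adjusted p = 0.0646, 0.229 and 0.112 from limma). Ebf2, another regulator of brown precursors, had 5.61 and 8.67 FPKM in Ctrl BAT, against 7.91, 10.1 and 8.15 FPKM in Ctrl eWAT and overlapped between depots (adjusted p = 0.236 from limma). The beta3-adrenergic receptor gene Adrb3 went the other way, with 107 and 47.7 FPKM in Ctrl BAT, against 257, 237 and 204 FPKM in Ctrl eWAT (log2 fold change -1.68, SE 0.31, adjusted p = 0.00214). Its adjusted p was 0.0627 after median-ratio scaling. Nrg4, a growth factor secreted by brown fat, had 44.5 and 58 FPKM in Ctrl BAT, against 83.3, 63.1 and 72.6 FPKM in Ctrl eWAT (log2 fold change -0.51, SE 0.172, adjusted p = 0.0296), and it was not called without Ctrl BAT replicate 1, Ctrl eWAT replicate 1 or Ctrl eWAT replicate 3 (adjusted p = 0.167, 0.0808 and 0.0715 from limma). After median-ratio scaling its log2 fold change was 0.3, without a call.

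**Figure D1:**
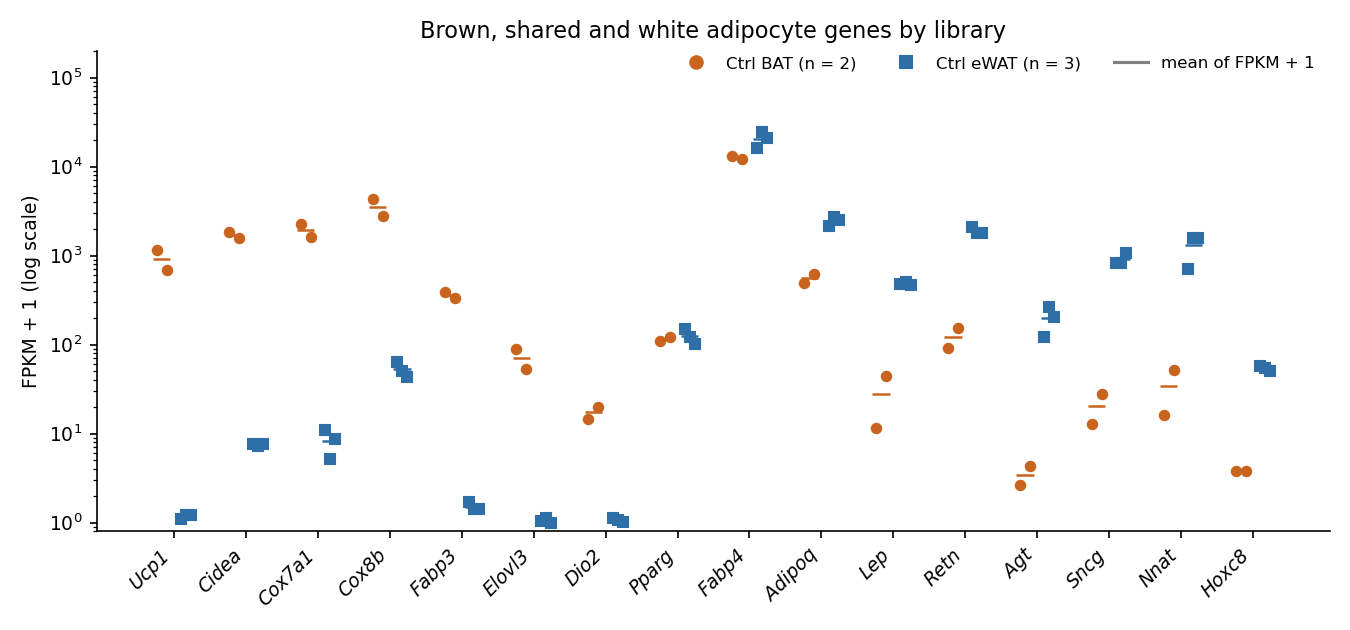
FPKM plus 1 on a log axis for 16 genes in each Ctrl BAT library (circles, n = 2) and each Ctrl eWAT library (squares, n = 3), with horizontal bars at the group means. Ucp1, Cidea, Cox7a1, Cox8b, Fabp3, Elovl3 and Dio2 lie above in BAT, Pparg overlaps between depots, and Lep, Retn, Agt, Sncg, Nnat and Hoxc8 lie above in eWAT.

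Dio2, the deiodinase that makes active thyroid hormone inside the cell, had 13.7 and 18.8 FPKM in Ctrl BAT, against 0.129, 0.0675 and 0.0188 FPKM in Ctrl eWAT (log2 fold change 3.99, SE 0.175, adjusted p = 1.09e-05). Its promoter is shown because it holds the letters of a cyclic AMP response element, and cyclic AMP carries the adrenergic signal in brown fat. The sequence is RefSeq, chr12:90738989-90739288 of GRCm38.p6 on the minus strand, from 250 bases before to 50 bases after the transcript start, and the capitals mark TGACGTCA, 95 bases before the start.
Dio2: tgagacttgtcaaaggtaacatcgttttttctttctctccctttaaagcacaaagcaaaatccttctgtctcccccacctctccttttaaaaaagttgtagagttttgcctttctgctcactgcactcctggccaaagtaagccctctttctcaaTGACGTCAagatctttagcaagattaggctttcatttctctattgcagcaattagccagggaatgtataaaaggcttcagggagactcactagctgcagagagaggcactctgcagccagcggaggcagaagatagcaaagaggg
The element TGACGTCA reads the same on both strands. It was found in 3.36% of the 9226 tested genes that have a promoter of this length in the RefSeq table, in 3.05% of those higher and in 3.12% of those lower in Ctrl BAT, so it was no more frequent among all genes higher in brown fat. Among the higher genes of the respiratory chain, citric acid cycle and fatty acid oxidation, 6 of 97 promoters (6.19%) held it.

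The respiratory chain was higher in Ctrl BAT almost throughout. It passes electrons through complexes I to IV and uses the proton gradient to make ATP in complex V. Of 36 complex I genes, 34 were higher and 0 lower (median log2 fold change 1.49). In complex II all 4 genes were higher with a median of 1.95, and in complex III all 9 with a median of 1.99. Complex IV had 13 of 16 genes higher and 2 lower with a median of 1.80, and complex V had 12 of 16 higher and 2 lower with a median of 1.38. These shares stand against 9.63% of all genes. After median-ratio scaling all 36 genes of complex I were higher, 14 of complex IV were higher and 0 lower, and 13 of complex V were higher and 1 lower. The nuclear genes of the 5 complexes together made up 16.9% and 13.8% of nuclear protein-coding FPKM in Ctrl BAT, against 3.88%, 3.54% and 3.86% in Ctrl eWAT.

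Subunits of the same complex differed in size of effect and a few in direction. Ndufa1 of complex I had 1150 and 814 FPKM in Ctrl BAT, against 186, 214 and 209 FPKM in Ctrl eWAT (log2 fold change 2.25, SE 0.181, adjusted p = 6.66e-05). Ndufa10 had 407 and 347 FPKM in Ctrl BAT, against 89.1, 82.9 and 88.1 FPKM in Ctrl eWAT (log2 fold change 2.1, SE 0.131, adjusted p = 3.16e-05). Ndufa7 and Ndufa2 were the complex I genes without a call, with log2 fold changes of 0.3 and 0.4. Succinate dehydrogenase, which is complex II and also a step of the citric acid cycle, was 2.06 higher for Sdhb, 1.98 for Sdha, 1.91 for Sdhd and 0.99 for Sdhc on the log2 scale. Uqcrb of complex III had 1366 and 1155 FPKM in Ctrl BAT, against 235, 225 and 245 FPKM in Ctrl eWAT. Uqcrc2 had 978 and 774 FPKM in Ctrl BAT, against 183, 167 and 182 FPKM in Ctrl eWAT. Cox5a of complex IV had 1109 and 1037 FPKM in Ctrl BAT, against 148, 127 and 146 FPKM in Ctrl eWAT (log2 fold change 2.93, SE 0.138, adjusted p = 1.26e-05). Every library of brown fat was above every library of epididymal fat for these genes. In complex V, Atp5l had 2007 and 1575 FPKM in Ctrl BAT, against 402, 355 and 421 FPKM in Ctrl eWAT (log2 fold change 2.18, SE 0.171, adjusted p = 6.21e-05), while Atpif1, which inhibits the ATP synthase, was lower, with 12.5 and 14.4 FPKM in Ctrl BAT, against 35, 38.6 and 43.4 FPKM in Ctrl eWAT (log2 fold change -1.47, SE 0.141, adjusted p = 0.000126). Atp5g3, one of 3 genes for the ring subunit c, had 391 and 322 FPKM in Ctrl BAT, against 714, 628 and 709.6 FPKM in Ctrl eWAT (log2 fold change -0.94), and was not called after median-ratio scaling (-0.12).

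**Figure D2:**
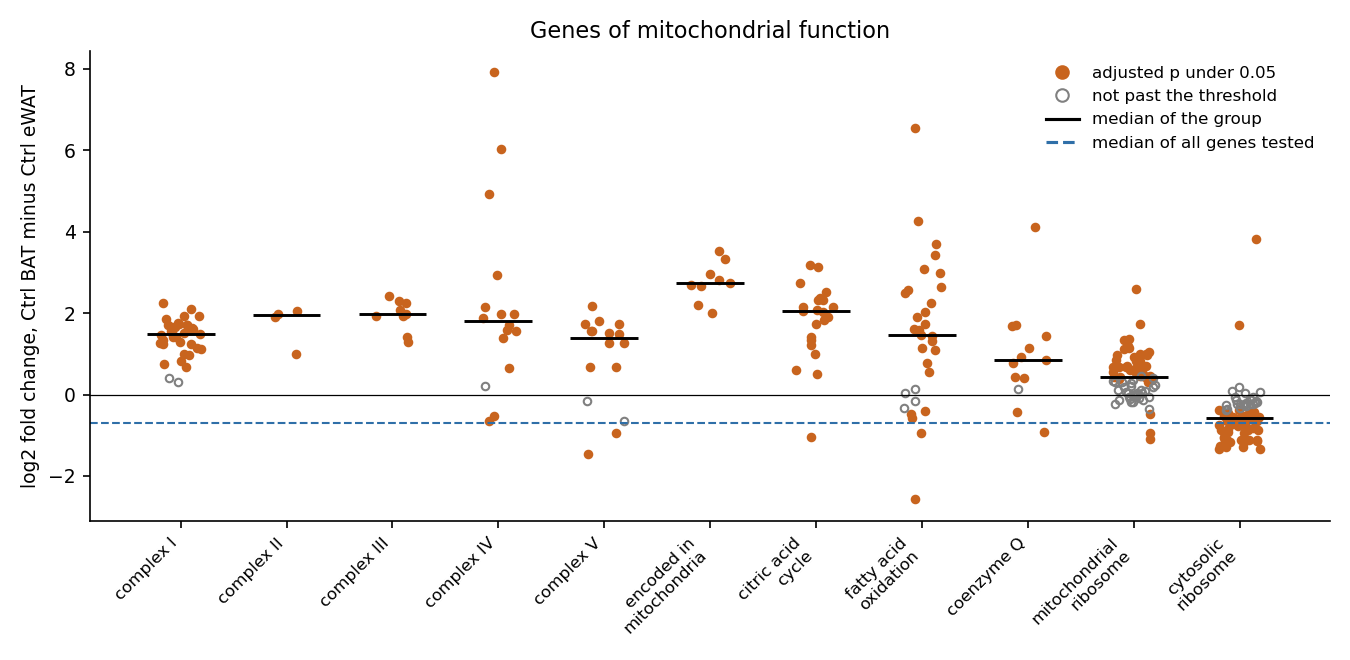
Log2 fold change, Ctrl BAT minus Ctrl eWAT, of each gene (points, filled where the adjusted p is under 0.05) in 11 groups, with the median of each group as a black bar and that of all genes tested (-0.69) as a dashed line. Genes listed at 0 in every library of a depot are left out. The respiratory, citric acid cycle and mitochondrially encoded groups have medians above 0, with single genes of complex IV, complex V and the citric acid cycle below 0. The mitochondrial ribosome has its median at 0.43 and the cytosolic ribosome at -0.58.

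Uqcrc1 and Atp5l are shown with their promoters because both hold the core motif of NRF1, a factor known for binding genes of the respiratory chain. Uqcrc1 is a core protein of complex III and had 756 and 732 FPKM in Ctrl BAT, against 161, 144 and 163 FPKM in Ctrl eWAT (log2 fold change 2.25, SE 0.131, adjusted p = 2.64e-05). The sequences are RefSeq, chr9:108936398-108936697 on the plus strand for Uqcrc1 and chr9:44920693-44920992 on the minus strand for Atp5l, of GRCm38.p6. Capitals mark GCGCATGCG read on either strand, 30 bases after the start in Uqcrc1, where the matches of both strands overlap, and 241 bases before the start in Atp5l, on the opposite strand.
Uqcrc1: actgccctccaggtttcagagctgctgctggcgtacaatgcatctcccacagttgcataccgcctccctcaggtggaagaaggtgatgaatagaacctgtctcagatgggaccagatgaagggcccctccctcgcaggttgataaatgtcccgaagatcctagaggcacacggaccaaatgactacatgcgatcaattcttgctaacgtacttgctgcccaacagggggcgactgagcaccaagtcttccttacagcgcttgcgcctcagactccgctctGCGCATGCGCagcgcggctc
Atp5l: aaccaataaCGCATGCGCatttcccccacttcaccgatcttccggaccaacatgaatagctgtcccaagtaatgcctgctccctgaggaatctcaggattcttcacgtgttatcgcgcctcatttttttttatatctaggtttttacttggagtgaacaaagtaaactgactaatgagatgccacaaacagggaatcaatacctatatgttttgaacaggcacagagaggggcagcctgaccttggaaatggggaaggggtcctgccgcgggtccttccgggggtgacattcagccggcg
The motif GCGCATGCG, searched on both strands, was held by 11 of 97 promoters (11.3%) of the respiratory, citric acid cycle and fatty acid oxidation genes that were higher in Ctrl BAT. It was held by 4.04% of all tested promoters, 4.19% of those higher, 3.75% of those lower, 4.77% of those without a call and 1.95% of all 27025 promoters of the table. The share in these pathways was not computed without regard to call. It is therefore not read as a trait of genes higher in brown fat. A match of letters is a description and does not show that the factor was bound.

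The 13 protein-coding genes of the mitochondrial genome fell into those measured and those listed at 0. The 9 measured genes were all higher in Ctrl BAT, with a median log2 fold change of 2.74. Here mt-Nd3, a complex I subunit, had 33060 and 32770 FPKM in Ctrl BAT, against 3069, 3383 and 3288 FPKM in Ctrl eWAT (log2 fold change 3.34, SE 0.213, adjusted p = 3.39e-05), and mt-Co2, a complex IV subunit, had 86270 and 67580 FPKM in Ctrl BAT, against 10650, 11310 and 10800 FPKM in Ctrl eWAT (log2 fold change 2.81, SE 0.277, adjusted p = 0.000138). The difference for mt-Nd3 was 10.1 times in the means, above that of any nuclear gene of complex I. In contrast mt-Co1, mt-Co3, mt-Atp6 and mt-Atp8 were listed at 0 in both Ctrl BAT libraries. In Ctrl eWAT, mt-Co1 had 10010, 10920 and 9225 FPKM and mt-Atp6 had 10140, 11510 and 10470 FPKM. No direction is given for these 4 genes, and the mitochondrial share of the BAT libraries above lacks them.

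Several subunits exist as 2 genes, one used in heart, muscle and brown fat and one used widely, and the share within such a pair does not depend on how libraries are scaled. Cox7a1 made up 79.1% and 79% of the Cox7a1 and Cox7a2 total in Ctrl BAT, against 4.48%, 2.4% and 3.67% in Ctrl eWAT. Cox8b made up 71.5% and 67% of Cox8b and Cox8a in Ctrl BAT, against 6.04%, 4.89% and 4.2% in Ctrl eWAT. Brown fat thus had mainly the restricted isoform and epididymal fat mainly the wide one. Cpt1b, which carries fatty acids into mitochondria of muscle and brown fat, took 99.2% and 98.7% of the Cpt1b and Cpt1a total in Ctrl BAT, against 9.3%, 5.87% and 6.27% in Ctrl eWAT, and the second gene was itself lower in brown fat, with 2.07 and 2.98 FPKM in Ctrl BAT, against 21.3, 18.9 and 19.5 FPKM in Ctrl eWAT (log2 fold change -2.58, SE 0.156, adjusted p = 3.00e-05). Fabp3 took 70.02% and 67.5% of Fabp3 and Fabp5 in Ctrl BAT, against 0.305%, 0.325% and 0.332% in Ctrl eWAT. The acetyl-CoA carboxylases showed no such switch. Acacb took 39.6% and 39.6% of Acacb and Acaca in Ctrl BAT, against 30.9%, 50.7% and 44.8% in Ctrl eWAT, so the depots overlapped although both genes were higher in brown fat (log2 fold changes 1.44 and 1.58).

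A pair with a muscle subunit behaved otherwise. Cox6a2 had 67.1 and 19.9 FPKM in Ctrl BAT, against 0.154, 0.322 and 0.225 FPKM in Ctrl eWAT (log2 fold change 4.94, SE 0.434, adjusted p = 8.99e-05), yet it reached only 3.2% and 1.32% of Cox6a2 and Cox6a1 in Ctrl BAT, against 0.0285%, 0.0567% and 0.0362% in Ctrl eWAT. Cox4i2, the lung isoform of subunit 4, was lower in brown fat, with 5.78 and 4.14 FPKM in Ctrl BAT, against 7.81, 7.44 and 7.24 FPKM in Ctrl eWAT (log2 fold change -0.53, SE 0.16, adjusted p = 0.0194), but the log2 fold change was 0.18 after median-ratio scaling and lost its call without Ctrl BAT replicate 2, Ctrl eWAT replicate 1 or Ctrl eWAT replicate 2 (adjusted p = 0.0822, 0.0552 and 0.0571 from limma). Cox6b2, the testis isoform of subunit 6b and the other lower gene of complex IV, was at -0.65, at 0.059 after median-ratio scaling, and not called without Ctrl BAT replicate 1 or Ctrl eWAT replicate 3 (adjusted p = 0.116 and 0.0508 from limma). Control inguinal fat, the third depot of the series, lay between for Cox7a1, at 34.8%, 26% and 36.1%, and for Cpt1b, at 49.8%, 52.7% and 59%. These inguinal values are given side by side and were not tested.

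**Figure D3:**
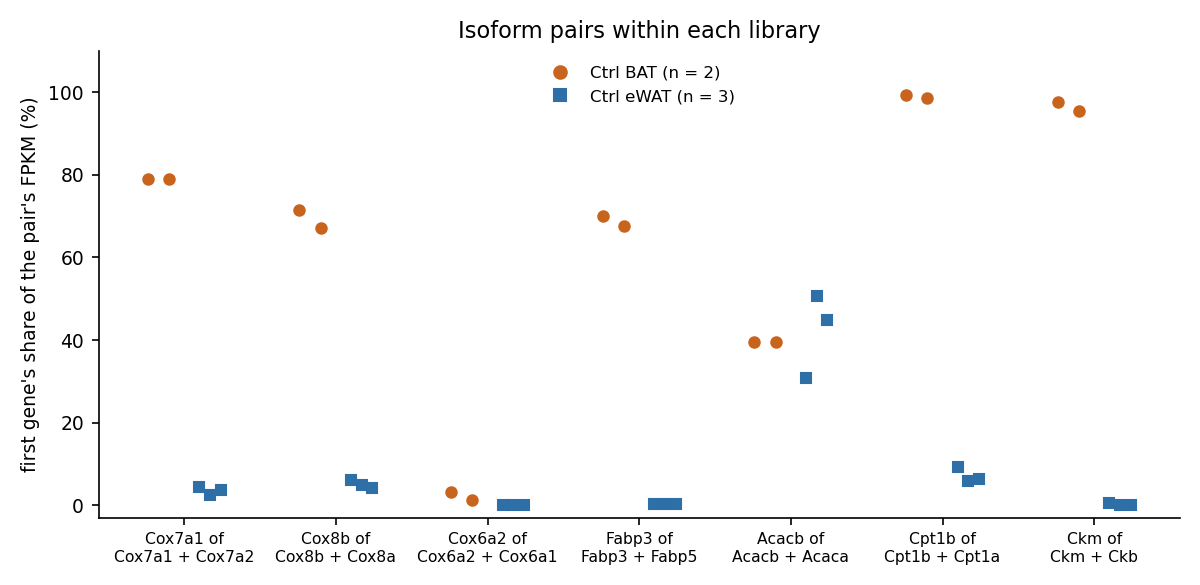
Share of the first gene in the summed FPKM of a gene pair, in percent, for each Ctrl BAT library (circles, n = 2) and each Ctrl eWAT library (squares, n = 3). Cox7a1, Cox8b, Fabp3, Cpt1b and Ckm make up most of their pair in BAT and little of it in eWAT, Cox6a2 stays under 4% in both and Acacb overlaps.

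The pathways that feed the chain were higher as well. Of 22 citric acid cycle genes, 21 were higher and 1 lower in Ctrl BAT (median log2 fold change 2.05), and 21 were higher and 0 lower after median-ratio scaling. Sucla2, a subunit of succinyl-CoA ligase, had 574 and 784 FPKM in Ctrl BAT, against 82, 67 and 77.8 FPKM in Ctrl eWAT (log2 fold change 3.14, SE 0.174, adjusted p = 2.30e-05). The exception was pyruvate carboxylase, Pcx, which makes oxaloacetate and also serves lipid synthesis, with 161 and 242 FPKM in Ctrl BAT, against 526, 361 and 351 FPKM in Ctrl eWAT (log2 fold change -1.03, SE 0.243, adjusted p = 0.00639). It was at -0.22 and not called after median-ratio scaling, and not called without Ctrl BAT replicate 1 (adjusted p = 0.0586 from limma).

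Of 31 fatty acid oxidation genes, 22 were higher and 5 lower (median 1.47), and 27 were higher and 1 lower after median-ratio scaling. Hadhb of the trifunctional protein had 1373 and 1745 FPKM in Ctrl BAT, against 123, 115 and 114 FPKM in Ctrl eWAT (log2 fold change 3.71, SE 0.152, adjusted p = 8.78e-06). The thiolase Acaa2 had 1050 and 1097 FPKM in Ctrl BAT, against 93.7, 105 and 98 FPKM in Ctrl eWAT (log2 fold change 3.43, SE 0.128, adjusted p = 6.69e-06). Slc27a2, a very long chain acyl-CoA synthetase, had 38.5 and 37.5 FPKM in Ctrl BAT, against 1.03, 0.613 and 1.54 FPKM in Ctrl eWAT. The 5 lower genes were Cpt1a, given above, and the peroxisomal enzymes Acaa1b (-0.96), Ehhadh (-0.59), Acaa1a (-0.47) and Hsd17b4 (-0.41), of which Ehhadh, Acaa1a and Hsd17b4 turned to 0.2, 0.34 and 0.4 after median-ratio scaling, where Acaa1b was at -0.16 and not called. Ehhadh was not called without Ctrl BAT replicate 1 or 2 or Ctrl eWAT replicate 1 or 2 (adjusted p = 0.0552 to 0.107 from limma), nor Hsd17b4 without Ctrl BAT replicate 1 or any 1 Ctrl eWAT library (adjusted p = 0.0586 to 0.130 from limma). Acsl1, which activates fatty acids, was not called, with a log2 fold change of -0.33 as deposited and of 0.48 after median-ratio scaling.

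Other mitochondrial genes differed less. Coenzyme Q synthesis had 10 of 13 genes higher and 2 lower (median 0.85; 12 and 0 after median-ratio scaling), led by Adck3 with 322 and 372 FPKM in Ctrl BAT, against 21.5, 18.6 and 17.3 FPKM in Ctrl eWAT (log2 fold change 4.11, SE 0.141, adjusted p = 5.16e-06). Mitochondrial ribosomal proteins had 41 of 75 higher and 3 lower (median 0.43), with Mrps36 the highest at 2.6, and 70 higher and 0 lower after median-ratio scaling. Slc25a20, the carnitine-acylcarnitine carrier of the inner membrane, had 229 and 234 FPKM in Ctrl BAT, against 36.9, 44.7 and 40.2 FPKM in Ctrl eWAT (log2 fold change 2.49, SE 0.129, adjusted p = 1.84e-05), within a carrier family of which 13 of 38 were higher and 12 lower, and 25 of 39 higher and 6 lower after median-ratio scaling. Chchd10, a protein of the intermembrane space, had 834 and 579.7 FPKM in Ctrl BAT, against 69.5, 62.2 and 68.8 FPKM in Ctrl eWAT. The mitochondrial chaperones Hspa9 and Hspd1 were 1.28 and 1.25 higher on the log2 scale, whereas the chaperones of the endoplasmic reticulum Hsp90b1 and Hspa5 were at -1.21 and -0.83, and at -0.4 and -0.017 after median-ratio scaling, where neither was called. Acot11, an acyl-CoA thioesterase of brown fat, had 94.1 and 93.2 FPKM in Ctrl BAT, against 1.01, 0.70 and 1.03 FPKM in Ctrl eWAT (log2 fold change 5.63, SE 0.14, adjusted p = 1.13e-06).

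Fat synthesis and fat storage held genes of both directions. Of 32 lipogenesis genes, 13 were higher and 8 lower in Ctrl BAT (median 0.21), and 19 were higher and 5 lower after median-ratio scaling. The member furthest above was Elovl3, whose values are given earlier (log2 fold change 6.03), followed by the elongase Elovl6. Elovl6 had 170.1 and 179.8 FPKM in Ctrl BAT, against 22.4, 4.98 and 7.57 FPKM in Ctrl eWAT (log2 fold change 4.05, SE 0.504, adjusted p = 0.000358). Acly, which supplies acetyl-CoA, had 1062 and 1002 FPKM in Ctrl BAT, against 471, 110.5 and 165 FPKM in Ctrl eWAT (log2 fold change 2.33, SE 0.534, adjusted p = 0.00578). Fasn, fatty acid synthase, had 6392 and 4403 FPKM in Ctrl BAT, against 3926, 1281 and 1868 FPKM in Ctrl eWAT (log2 fold change 1.33, SE 0.452, adjusted p = 0.0295). Ctrl eWAT replicate 1 was the highest of its group for Elovl6, Acly and Fasn. Acly was not called without Ctrl BAT replicate 1 (adjusted p = 0.0543 from limma), and Fasn was not called without either Ctrl BAT library or without Ctrl eWAT replicate 2 or 3 (adjusted p = 0.0709 to 0.194 from limma). Gpd1, which makes glycerol 3-phosphate, had 2077 and 2241 FPKM in Ctrl BAT, against 616, 312 and 326 FPKM in Ctrl eWAT (log2 fold change 2.44, SE 0.299, adjusted p = 0.000336). Scd1 was among the most abundant nuclear transcripts of both depots and overlapped between them, with 7844 and 11190 FPKM in Ctrl BAT, against 8579, 6617 and 8109 FPKM in Ctrl eWAT (adjusted p = 0.355 from limma). After median-ratio scaling Scd1 was called higher in brown fat, with a log2 fold change of 1.1 (adjusted p = 0.0134 from limma). Lower in brown fat were Fads1, a desaturase of polyunsaturated fatty acids, with 4.2 and 6.16 FPKM in Ctrl BAT, against 39.3, 41.4 and 42.1 FPKM in Ctrl eWAT (log2 fold change -2.78, SE 0.161, adjusted p = 2.60e-05), the elongase Elovl1 with 7.42 and 7.25 FPKM in Ctrl BAT, against 45.3, 40.2 and 40.4 FPKM in Ctrl eWAT, and the acyltransferase Agpat9 with 6.05 and 3.86 FPKM in Ctrl BAT, against 38.8, 31.9 and 28.8 FPKM in Ctrl eWAT.

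Of 25 genes of the lipid droplet and lipolysis, 7 were higher and 13 lower (median -0.60, close to that of all genes). After median-ratio scaling 9 were higher and 4 lower, and the median was 0.21. Cidec, which enlarges droplets in white adipocytes, had 399 and 728 FPKM in Ctrl BAT, against 1708, 2572 and 2555 FPKM in Ctrl eWAT (log2 fold change -2.05, SE 0.304, adjusted p = 0.000781), the opposite direction to its relative Cidea. Among perilipins, which coat the droplet, Plin4 had 89.2 and 96.2 FPKM in Ctrl BAT, against 373, 494 and 478 FPKM in Ctrl eWAT (log2 fold change -2.25, SE 0.162, adjusted p = 4.72e-05). Plin5, of oxidative tissues, had 75.3 and 62.2 FPKM in Ctrl BAT, against 4.39, 7.56 and 8.92 FPKM in Ctrl eWAT (log2 fold change 3.17, SE 0.258, adjusted p = 6.77e-05). Lipoprotein lipase, Lpl, had 608 and 930.4 FPKM in Ctrl BAT, against 2745, 2035 and 2059 FPKM in Ctrl eWAT (log2 fold change -1.58, SE 0.242, adjusted p = 0.00091), and its inhibitor Angptl4 had 45.8 and 51.4 FPKM in Ctrl BAT, against 176, 385 and 324 FPKM in Ctrl eWAT (log2 fold change -2.5, SE 0.31, adjusted p = 0.000349). Gyk, glycerol kinase, was higher in brown fat at 2.09. Pnpla2, the first lipase of triglyceride breakdown, had 1058 and 1288 FPKM in Ctrl BAT, against 1247, 1822 and 1478 FPKM in Ctrl eWAT and did not pass (adjusted p = 0.156 from limma).

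Glucose metabolism was higher in brown fat, with 25 of 35 genes higher, 6 lower and a median of 1.51, and 28 higher and 5 lower after median-ratio scaling. Pdk4, a kinase that limits entry of pyruvate into the citric acid cycle, had 318 and 276 FPKM in Ctrl BAT, against 9.68, 45.2 and 37 FPKM in Ctrl eWAT (log2 fold change 3.49, SE 0.567, adjusted p = 0.00119). The insulin-responsive glucose transporter Slc2a4 had 239 and 240.2 FPKM in Ctrl BAT, against 138, 117 and 125 FPKM in Ctrl eWAT (log2 fold change 0.92, SE 0.129, adjusted p = 0.000626), whereas Slc2a3, a transporter of immune cells and neurons, had 0.959 and 1.8 FPKM in Ctrl BAT, against 12.2, 16.8 and 14.3 FPKM in Ctrl eWAT (log2 fold change -2.71, SE 0.205, adjusted p = 5.45e-05). The members with the largest differences, Pgam2 (5.68), Pygm (4.13) and Eno3 (3.53), are muscle enzymes. Pgam2 had 114 and 51.8 FPKM in Ctrl BAT, against 0.667, 0.581 and 0.324 FPKM in Ctrl eWAT.

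Skeletal muscle transcripts were present in the brown fat libraries. All 38 measured genes of a skeletal muscle list were higher in Ctrl BAT, with a median log2 fold change of 4.89, and their sum was 1.80% and 1.05% of nuclear protein-coding FPKM in Ctrl BAT, against 0.0157% to 0.0204% in Ctrl eWAT. The troponin Tnnt3 had 1040 and 537 FPKM in Ctrl BAT, against 0.162, 0.673 and 1.07 FPKM in Ctrl eWAT, the fast myosin Myh4 had 333 and 216 FPKM in Ctrl BAT, against 0.0421, 0.0849 and 0.111 FPKM in Ctrl eWAT and parvalbumin, Pvalb, had 504 and 260.4 FPKM in Ctrl BAT, against 0.0948, 0.396 and 0.414 FPKM in Ctrl eWAT. Ctrl BAT replicate 1 was above replicate 2 for 38 of 38 genes, with a summed level 1.80 times as high. The sum was 0.621% and 0.650% in the BAT libraries labelled HuR-FKO, against the values of Ctrl BAT above. The muscle sum thus varied between libraries of the same depot. 

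Cox7a1 and Cpt1b, genes of brown fat that muscle also uses, can be set beside that amount. Cox7a1 had 2211 and 2033 FPKM in the BAT libraries labelled HuR-FKO, against 2279 and 1608 FPKM in Ctrl BAT. Cpt1b had 278 and 284 FPKM in BAT labelled HuR-FKO, against 256 and 219 FPKM in Ctrl BAT. Within Ctrl BAT both genes were higher in replicate 1, the library with the larger muscle sum. That order was not particular to muscle genes. Replicate 1 was also above replicate 2 for 34 of 36 complex I, 15 of 16 complex IV and 24 of 40 brown adipocyte genes. For fatty acid oxidation it was above in 10 of 31 genes, and over all genes tested replicate 2 was the higher for 57.7%. Cox6a2 had 16.9 and 14.2 FPKM in BAT labelled HuR-FKO, against 67.1 and 19.9 FPKM in Ctrl BAT. Pygm, muscle glycogen phosphorylase, had 34.3 and 37.4 FPKM in BAT labelled HuR-FKO, against 115 and 61.4 FPKM in Ctrl BAT. Eno3, the muscle enolase, had 63 and 58.9 FPKM in BAT labelled HuR-FKO, against 184 and 104 FPKM in Ctrl BAT. Cox6a2, Pygm and Eno3 are members of the muscle list, so they are part of that sum and not independent of it. For these 3 genes both libraries labelled HuR-FKO lay below both Ctrl BAT libraries. The libraries set side by side here also differ in their genotype label, and the part of muscle in these values was not tested. Ckm, muscle creatine kinase, had 518 and 270.5 FPKM in Ctrl BAT, against 0.236, 0 and 0.086 FPKM in Ctrl eWAT, while the widely used Ckb had 12.6 and 12.7 FPKM in Ctrl BAT, against 49.1, 41.5 and 54.4 FPKM in Ctrl eWAT (log2 fold change -1.84, SE 0.145, adjusted p = 6.34e-05).

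Creatine and calcium cycling, which can release heat without Ucp1, share enzymes with muscle. Of 12 measured genes, 7 were higher and 4 lower, and of 13 after median-ratio scaling 8 were higher and 3 lower. Atp2a1, the calcium pump of fast muscle, had 458 and 399.6 FPKM in Ctrl BAT, against 0.183, 0.139 and 0.234 FPKM in Ctrl eWAT (log2 fold change 8.5, SE 0.131, adjusted p = 8.54e-08). Its regulator Sln had 11.5 and 15.5 FPKM in Ctrl BAT and was listed at 0 in all 3 Ctrl eWAT libraries, as was the mitochondrial creatine kinase Ckmt2, with 55.4 and 20.8 FPKM in Ctrl BAT. Gamt, which makes creatine, was lower, with 6.41 and 6.91 FPKM in Ctrl BAT, against 51, 41.8 and 42.1 FPKM in Ctrl eWAT (log2 fold change -2.58, SE 0.138, adjusted p = 2.07e-05).

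**Figure D4:**
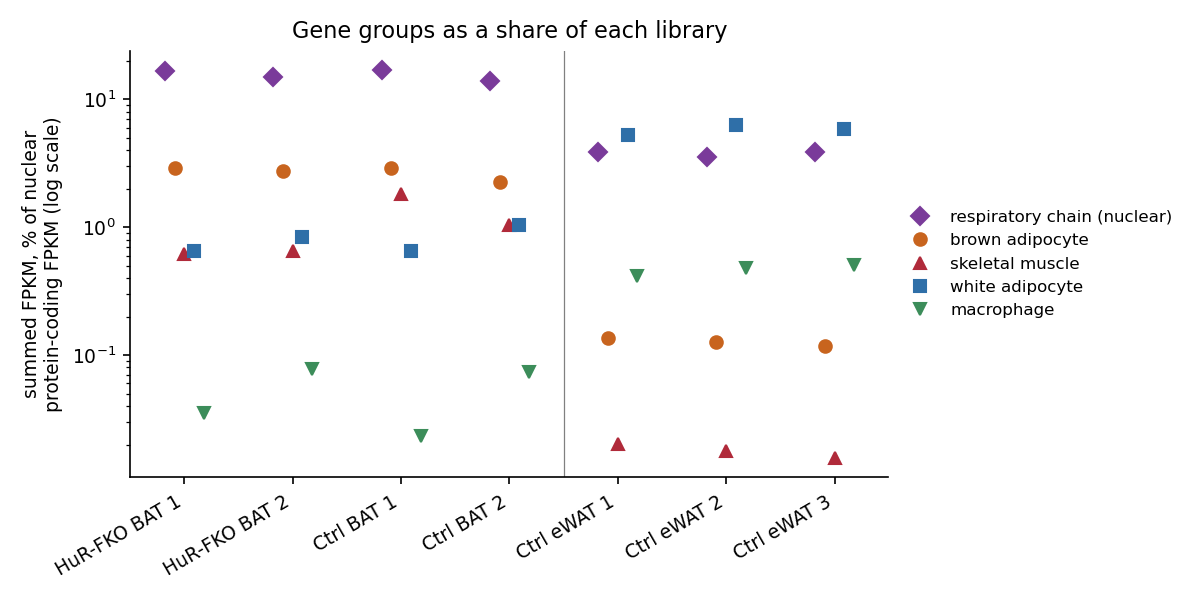
Summed FPKM of 5 gene groups as a percentage of nuclear protein-coding FPKM, on a log axis, in each of 2 HuR-FKO BAT, 2 Ctrl BAT and 3 Ctrl eWAT libraries, with the groups set slightly apart sideways. Skeletal muscle is at 1.80% and 1.05% in Ctrl BAT and at no more than 0.0204% in Ctrl eWAT, and macrophage genes are at 0.0233% and 0.0740% in Ctrl BAT, against 0.417% to 0.503% in Ctrl eWAT.

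Signalling genes differed by family member. Of 23 genes of sympathetic signalling, 5 were higher and 11 lower in Ctrl BAT (median -0.47), and 8 were higher and 4 lower after median-ratio scaling, where the median was 0.20. Gnas, the stimulatory G protein, had 431 and 382 FPKM in Ctrl BAT, against 50.3, 43.2 and 46.6 FPKM in Ctrl eWAT (log2 fold change 3.09, SE 0.131, adjusted p = 9.60e-06). The adenylyl cyclase Adcy3, which makes cyclic AMP, had 17.9 and 20.7 FPKM in Ctrl BAT, against 3.73, 3.33 and 3.43 FPKM in Ctrl eWAT (log2 fold change 2.17, SE 0.137, adjusted p = 3.27e-05), while Adcy5 had 0.79 and 1.39 FPKM in Ctrl BAT, against 17.8, 27.3 and 21.1 FPKM in Ctrl eWAT (log2 fold change -3.46, SE 0.214, adjusted p = 3.15e-05). Of these 2 cyclases, brown fat thus carried mainly Adcy3 and epididymal fat mainly Adcy5. The phosphodiesterase Pde4d, which breaks cyclic AMP down, was 2.96 higher and the alpha1A-adrenergic receptor Adra1a 1.84 higher in brown fat on the log2 scale. Npr3, the clearance receptor for natriuretic peptides, had 4.79 and 7.19 FPKM in Ctrl BAT, against 97, 80.7 and 84.3 FPKM in Ctrl eWAT (log2 fold change -3.68, SE 0.177, adjusted p = 1.37e-05).

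Of 19 thyroid hormone and retinoid genes, 3 were higher, with Dio2 first, and 13 lower (median -1.23), and 5 were higher and 10 lower after median-ratio scaling. Aldh1a1, which makes retinoic acid from retinaldehyde, had 9.999 and 13.8 FPKM in Ctrl BAT, against 149, 183 and 210.3 FPKM in Ctrl eWAT. Aldh1a3, of the same family, had 0.29 and 0.539 FPKM in Ctrl BAT, against 19.5, 19.9 and 14 FPKM in Ctrl eWAT (log2 fold change -3.72, SE 0.192, adjusted p = 1.81e-05). Tshr, the thyrotropin receptor, had 2.22 and 1.84 FPKM in Ctrl BAT, against 38.1, 26.9 and 23.5 FPKM in Ctrl eWAT (log2 fold change -3.3, SE 0.21, adjusted p = 3.36e-05).

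White adipocyte genes were low in brown fat. Of 33 measured, 0 were higher and 32 lower (median -2.97), and 30 of 32 were lower after median-ratio scaling. Their sum was 0.649% and 1.04% of nuclear protein-coding FPKM in Ctrl BAT, against 5.29% to 6.27% in Ctrl eWAT. Leptin, Lep, the satiety hormone of white fat, had 10.6 and 43.3 FPKM in Ctrl BAT, against 483, 502 and 459.9 FPKM in Ctrl eWAT (log2 fold change -4.41, SE 0.482, adjusted p = 0.00021). Agt, the precursor of angiotensin, had 1.61 and 3.27 FPKM in Ctrl BAT, against 119.9, 266 and 205 FPKM in Ctrl eWAT (log2 fold change -5.82, SE 0.348, adjusted p = 2.86e-05). Sncg, gamma-synuclein, had 11.9 and 26.6 FPKM in Ctrl BAT, against 828, 828 and 1078 FPKM in Ctrl eWAT. The imprinted gene Nnat had 15 and 51 FPKM in Ctrl BAT, against 708, 1589 and 1589 FPKM in Ctrl eWAT. Retn, resistin, had 91.2 and 151 FPKM in Ctrl BAT, against 2065, 1771 and 1787 FPKM in Ctrl eWAT (log2 fold change -3.98, SE 0.227, adjusted p = 2.49e-05). In each of these genes Ctrl BAT replicate 2 was above replicate 1, as in 29 of the 33 members, while both stayed far below every eWAT library.

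The promoter of Lep is shown because it holds a palindrome bound by C/EBP factors, which act in fat cell differentiation. The sequence is RefSeq, chr6:29059971-29060270 of GRCm38.p6 on the plus strand, with capitals at TTGCGCAA, 55 bases before the start.
Lep: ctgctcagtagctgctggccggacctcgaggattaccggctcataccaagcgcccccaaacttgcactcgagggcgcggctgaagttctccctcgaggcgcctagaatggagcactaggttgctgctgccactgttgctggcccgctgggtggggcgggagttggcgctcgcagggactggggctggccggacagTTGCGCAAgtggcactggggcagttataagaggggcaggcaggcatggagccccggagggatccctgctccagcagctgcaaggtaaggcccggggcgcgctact
TTGCGCAA, the same on both strands, was found in 33 of 9226 tested promoters (0.358%). It was found in 1 of 884 of those higher (0.113%) and in 24 of 6055 of those lower in Ctrl BAT (0.396%). With 1 promoter among the higher genes, no difference in share is read.

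Secreted factors and shared adipocyte genes followed the white pattern in part. Of 28 factors secreted by fat, 3 were higher and 22 lower (median -1.71), and 4 were higher and 16 lower after median-ratio scaling. Cfd, adipsin, was the second most abundant nuclear transcript of epididymal fat, with 780.5 and 1030 FPKM in Ctrl BAT, against 9270, 13730 and 13160 FPKM in Ctrl eWAT (log2 fold change -3.73, SE 0.257, adjusted p = 4.18e-05). Adiponectin, Adipoq, had 484 and 622 FPKM in Ctrl BAT, against 2153, 2706 and 2508 FPKM in Ctrl eWAT (log2 fold change -2.15, SE 0.191, adjusted p = 9.35e-05). The higher ones included Vegfa, which drives vessel growth, at 0.68 (not called without Ctrl BAT replicate 1, adjusted p = 0.0707 from limma), and Ptgds, prostaglandin D synthase, at 1.54. Of 37 genes that both kinds of adipocyte use, 3 were higher (Gpd1, Slc2a4 and the factor Cebpb) and 22 lower, with a median of -0.83, and 8 were higher and 13 lower after median-ratio scaling, with a median of -0.08. Pparg, the master factor of adipocytes, had 109 and 121 FPKM in Ctrl BAT, against 149, 120.0 and 100.2 FPKM in Ctrl eWAT. Fabp4, the most abundant nuclear transcript in both depots, had 13080 and 12270 FPKM in Ctrl BAT, against 16340, 24200 and 20670 FPKM in Ctrl eWAT. Neither was called as deposited (adjusted p = 0.692 and 0.062 from limma). After median-ratio scaling Pparg was called higher in brown fat, with a log2 fold change of 0.73 (adjusted p = 0.0119 from limma). Fabp4 was at 0.15 on that scale and not called. Sucnr1, the succinate receptor, was lower in brown fat with 1.6 and 3.02 FPKM in Ctrl BAT, against 44.5, 43.5 and 52 FPKM in Ctrl eWAT, and Cebpd, a C/EBP factor, with 4.2 and 5.16 FPKM in Ctrl BAT, against 24.2, 50.3 and 50.2 FPKM in Ctrl eWAT (log2 fold change -2.84, SE 0.314, adjusted p = 0.000222). Cyp2e1, a cytochrome P450, had 58.6 and 241 FPKM in Ctrl BAT, against 2773, 4352 and 3837 FPKM in Ctrl eWAT (log2 fold change -4.9, SE 0.534, adjusted p = 0.000208).

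Several transcription factors of position were nearly silent in one of the depots, although as a group their share of lower genes was close to that of all genes. Of 33 such factors, 6 were higher and 20 lower in Ctrl BAT (median -0.95), and of 34 after median-ratio scaling 10 were higher and 15 lower (median -0.33). Zic1, a zinc finger factor of dorsal tissues, had 1.61 and 1.97 FPKM in Ctrl BAT, against 0.00445, 0.00668 and 0.0164 FPKM in Ctrl eWAT (log2 fold change 1.46, SE 0.15, adjusted p = 0.000161). Lhx8 had 1.25 and 1.28 FPKM in Ctrl BAT and was listed at 0 in all 3 Ctrl eWAT libraries. Tbx15 had 5.65 and 5.15 FPKM in Ctrl BAT, against 0.012, 0.158 and 0.721 FPKM in Ctrl eWAT (log2 fold change 2.34, SE 0.238, adjusted p = 0.000157). Shox2 and Prdm16 were also higher, by 0.68 and 0.61. Factors known from visceral fat were lower in brown fat. Wt1 had 0 and 0.0538 FPKM in Ctrl BAT, against 11.7, 9.29 and 12.3 FPKM in Ctrl eWAT (log2 fold change -3.55, SE 0.163, adjusted p = 1.24e-05). Osr1 had 0.13 and 1.15 FPKM in Ctrl BAT, against 20.7, 18.9 and 30.4 FPKM in Ctrl eWAT (log2 fold change -3.93, SE 0.307, adjusted p = 6.06e-05). Gata6 had 0.255 and 0.569 FPKM in Ctrl BAT, against 8.72, 7.2 and 7.48 FPKM in Ctrl eWAT (log2 fold change -2.64, SE 0.166, adjusted p = 3.21e-05). Tcf21 was listed at 0 in both Ctrl BAT libraries and had 7.56, 6.38 and 9.58 FPKM in Ctrl eWAT.

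The Hox genes, which set position along the body axis, were mostly lower in brown fat. Of 24 measured, 1 was higher and 21 lower (median -1.24), and 2 were higher and 14 lower after median-ratio scaling. Hoxc8 had 2.75 and 2.79 FPKM in Ctrl BAT, against 56.2, 53.2 and 49.3 FPKM in Ctrl eWAT (log2 fold change -3.84, SE 0.123, adjusted p = 3.84e-06). Hoxc9 had 0.0271 and 0 FPKM in Ctrl BAT, against 3.71, 2.36 and 2.41 FPKM in Ctrl eWAT. Hoxd3 had 2.81 and 2.42 FPKM in Ctrl BAT, against 15.9, 14.3 and 13.2 FPKM in Ctrl eWAT (log2 fold change -2.09, SE 0.142, adjusted p = 3.90e-05). Hoxa4, of the anterior part of its cluster, was the higher one, with 6.55 and 7.74 FPKM in Ctrl BAT, against 5.2, 3.29 and 2.48 FPKM in Ctrl eWAT (log2 fold change 0.84, SE 0.247, adjusted p = 0.0164), although it was not called without Ctrl BAT replicate 1 or 2 (adjusted p = 0.0576 and 0.109 from limma). Hoxa5 had 9.69 and 12.1 FPKM in Ctrl BAT, against 14.2, 11.1 and 11.2 FPKM in Ctrl eWAT and was not called as deposited (adjusted p = 0.434 from limma). Its log2 fold change changed sign to 0.61 under median-ratio scaling, where it was called higher.

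Mesothelium, matrix and progenitor genes were low in brown fat. All 16 measured mesothelial genes were lower, with a median of -3.53, of which 4 were listed at 0 in both Ctrl BAT libraries and the other 12 had a median of -3.40. Slpi, a protease inhibitor, was listed at 0 in Ctrl BAT and had 148, 134 and 251 FPKM in Ctrl eWAT, and Upk3b was listed at 0 in Ctrl BAT and had 66.3, 55 and 78.3 FPKM in Ctrl eWAT. Mesothelin, Msln, had 0 and 0.186 FPKM in Ctrl BAT, against 29.8, 25.5 and 37.2 FPKM in Ctrl eWAT (log2 fold change -4.85, SE 0.188, adjusted p = 7.31e-06). Krt19, a keratin, had 0 and 0.101 FPKM in Ctrl BAT, against 34.9, 24.2 and 34.8 FPKM in Ctrl eWAT. Markers of the neighbouring epididymis and testis passed the minimum in 1 of 18 cases, Insl3, which was not called (adjusted p = 0.0685 from limma).

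Collagens were lower for 21 of 24 genes and higher for 2 (median -1.80), and other matrix genes were lower for 34 of 37 and higher for 1 (median -2.27). After median-ratio scaling 15 of 25 collagens and 26 of 37 other matrix genes were lower. Fmod, fibromodulin, had 0.0604 and 0.402 FPKM in Ctrl BAT, against 31.5, 24.4 and 35.5 FPKM in Ctrl eWAT (log2 fold change -4.67, SE 0.203, adjusted p = 1.05e-05). Col6a5 had 0 and 0.0444 FPKM in Ctrl BAT, against 12.4, 13.7 and 14.3 FPKM in Ctrl eWAT (log2 fold change -3.82, SE 0.14, adjusted p = 6.35e-06) and the protease inhibitor Timp2 had 5.53 and 25.9 FPKM in Ctrl BAT, against 203, 207 and 223 FPKM in Ctrl eWAT (log2 fold change -4.0, SE 0.507, adjusted p = 0.000388). The higher collagens were Col27a1, with 12.4 and 5.37 FPKM in Ctrl BAT, against 1.2, 1.34 and 1.23 FPKM in Ctrl eWAT (log2 fold change 2.03, SE 0.292, adjusted p = 0.000676), and Col7a1, by 0.8, and the higher matrix gene was the protease Mmp3, by 1.4, not called without Ctrl BAT replicate 2 (adjusted p = 0.0686 from limma). Of 27 progenitor and fibroblast genes, 24 were lower and 0 higher (median -1.90), and 18 were lower and 1 higher after median-ratio scaling. Igfbp6 had 4.06 and 20.4 FPKM in Ctrl BAT, against 181, 214 and 240.3 FPKM in Ctrl eWAT (log2 fold change -4.34, SE 0.523, adjusted p = 0.000314). Gsn, gelsolin, had 223 and 528 FPKM in Ctrl BAT, against 4121, 5678 and 5495 FPKM in Ctrl eWAT (log2 fold change -3.87, SE 0.359, adjusted p = 0.00011). For 35 of 37 other matrix genes Ctrl BAT replicate 2 was above replicate 1.

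Vessel genes differed less once the scale is taken into account. Of 27 endothelial genes, 25 were lower and 0 higher in Ctrl BAT (median -1.11), and 12 were lower and 2 higher after median-ratio scaling (median -0.38). The receptors for vascular endothelial growth factor, Kdr and Flt1, overlapped between depots. Kdr had 25.1 and 23.2 FPKM in Ctrl BAT, against 23.6, 27.3 and 27.2 FPKM in Ctrl eWAT. Flt1 had 18.9 and 20.2 FPKM in Ctrl BAT, against 16.6, 22.2 and 18.8 FPKM in Ctrl eWAT, with log2 fold changes of -0.1 and 0.032 as deposited and of 0.69 and 0.82 after median-ratio scaling. Plvap, of fenestrated endothelium, had 1.92 and 4.22 FPKM in Ctrl BAT, against 44, 51.1 and 45.9 FPKM in Ctrl eWAT (log2 fold change -3.62, SE 0.238, adjusted p = 3.68e-05). Of 13 mural cell genes 11 were lower and 0 higher (median -1.41), and 7 were lower and 2 higher after median-ratio scaling. Rgs5, of pericytes, had 82.7 and 98.3 FPKM in Ctrl BAT, against 92.2, 87.8 and 96.5 FPKM in Ctrl eWAT (log2 fold change -0.03, and 0.78 after median-ratio scaling), whereas Acta2, of smooth muscle, had 15.3 and 16.9 FPKM in Ctrl BAT, against 112, 145 and 148 FPKM in Ctrl eWAT (log2 fold change -2.98, SE 0.157, adjusted p = 1.93e-05). All 6 lymphatic genes were lower. The chemokine Ccl21a had 1.44 and 5.12 FPKM in Ctrl BAT, against 64.9, 74.9 and 81.3 FPKM in Ctrl eWAT (log2 fold change -4.27, SE 0.349, adjusted p = 6.89e-05), although its reads could be shared with near-identical copies such as Ccl21b. Of 6 measured nerve and Schwann cell genes, 2 were higher and 3 lower, and of 10 after median-ratio scaling 5 were higher and 3 lower.

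As deposited, immune genes were lower in brown fat without exception among macrophage, antigen presentation and complement genes. All 26 macrophage genes were lower (median -2.65), and 24 were lower after median-ratio scaling. Their sum was 0.0233% and 0.0740% of nuclear protein-coding FPKM in Ctrl BAT, against 0.417% to 0.503% in Ctrl eWAT. Lyz2, lysozyme, had 22.4 and 77.2 FPKM in Ctrl BAT, against 473, 517 and 528 FPKM in Ctrl eWAT (log2 fold change -3.57, SE 0.437, adjusted p = 0.000336). The folate receptor Folr2 of resident macrophages had 1.7 and 6.84 FPKM in Ctrl BAT, against 58.9, 56.5 and 62.6 FPKM in Ctrl eWAT (log2 fold change -3.71, SE 0.39, adjusted p = 0.000176). Retnla, of alternatively activated macrophages, had 8.85 and 57.5 FPKM in Ctrl BAT, against 810.0, 903 and 1083 FPKM in Ctrl eWAT (log2 fold change -5.27, SE 0.639, adjusted p = 0.000322). In 23 of 26 of these genes Ctrl BAT replicate 2 was above replicate 1. All 16 genes of antigen presentation were lower (median -1.78), and 14 after median-ratio scaling, such as Cd74, the invariant chain, with 45.8 and 89.5 FPKM in Ctrl BAT, against 530.2, 635 and 706 FPKM in Ctrl eWAT (log2 fold change -3.25, SE 0.278, adjusted p = 8.11e-05). All 17 complement genes were lower (median -3.30), and 14 of 16 were lower and 1 higher after median-ratio scaling. C6, of the lytic pathway, had 0 and 0.243 FPKM in Ctrl BAT, against 25.8, 39.2 and 31.4 FPKM in Ctrl eWAT. C7, of the same pathway, had 0.281 and 6.53 FPKM in Ctrl BAT, against 76.7, 85.9 and 93.3 FPKM in Ctrl eWAT. Cfb, of the alternative pathway, had 2.54 and 10.5 FPKM in Ctrl BAT, against 147, 143 and 153 FPKM in Ctrl eWAT (log2 fold change -4.54, SE 0.426, adjusted p = 0.000116). All 10 measured T and NK cell genes were lower too (median -1.12), and 6 of 9 after median-ratio scaling, with Cd52 the largest at -2.89.

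The remaining groups differed in how far they lay from the median of all genes. Of 78 cytosolic ribosomal genes, 53 were lower and 2 higher (median -0.58), and 25 were higher and 2 lower after median-ratio scaling (median 0.23), so that no direction can be given for this group without a choice of scale. The higher genes were Rpl3l, a muscle paralog, with 22.7 and 10.6 FPKM in Ctrl BAT, against 0, 0.0897 and 0.513 FPKM in Ctrl eWAT, and Rpl39l, with 3.5 and 2.51 FPKM in Ctrl BAT, against 0.401, 0 and 0.291 FPKM in Ctrl eWAT. Replication-dependent histone genes were lower for 41 of 45 and higher for 1 (median -1.42), and for 31 of 44 after median-ratio scaling. Glutathione and antioxidant genes had 7 of 34 higher and 20 lower (median -0.55), and 14 higher and 11 lower after median-ratio scaling (median 0.26), with the mitochondrial superoxide dismutase Sod2 at 126 and 134 FPKM in Ctrl BAT, against 52.9, 43.9 and 42.8 FPKM in Ctrl eWAT (log2 fold change 1.47, SE 0.138, adjusted p = 0.000116) and the glutathione transferase Gsta3 at 5.23 and 13.8 FPKM in Ctrl BAT, against 333, 289 and 311 FPKM in Ctrl eWAT (log2 fold change -5.02, SE 0.324, adjusted p = 3.45e-05). Phgdh, the first enzyme of serine synthesis, had 3.58 and 11.8 FPKM in Ctrl BAT, against 214, 226 and 273 FPKM in Ctrl eWAT (log2 fold change -4.95, SE 0.386, adjusted p = 6.04e-05). Psat1, the next, had 2.58 and 5.34 FPKM in Ctrl BAT, against 79.1, 79.6 and 67.8 FPKM in Ctrl eWAT (log2 fold change -4.0, SE 0.237, adjusted p = 2.76e-05).

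A list of RNA-binding proteins held binders of AU-rich elements, as HuR is, and also others such as Ybx1, Ybx2, Igf2bp2 and Pspc1. Of its 12 measured genes 9 were lower and 1 higher (median -0.88), a share near that of all genes. After median-ratio scaling 5 were lower and 3 higher (median -0.08). Elavl1 itself (ENSMUSG00000040028, mm10 chromosome 8, 4285382 to 4325413) had 8.34 and 7.36 FPKM in Ctrl BAT, against 13.6, 13.8 and 12.2 FPKM in Ctrl eWAT (log2 fold change -0.68, SE 0.132, adjusted p = 0.00264), and its log2 fold change was 0.063 after median-ratio scaling, where it was not called. The higher gene was Ybx2, an RNA-binding protein that stabilises brown fat transcripts, with 74 and 41.7 FPKM in Ctrl BAT, against 5.61, 8.88 and 8.93 FPKM in Ctrl eWAT (log2 fold change 2.71, SE 0.279, adjusted p = 0.000163). Zfp36, which destabilises RNA, had 13.4 and 16.5 FPKM in Ctrl BAT, against 49.6, 80.3 and 55.5 FPKM in Ctrl eWAT (log2 fold change -1.95, SE 0.216, adjusted p = 0.000221).

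**Figure D5:**
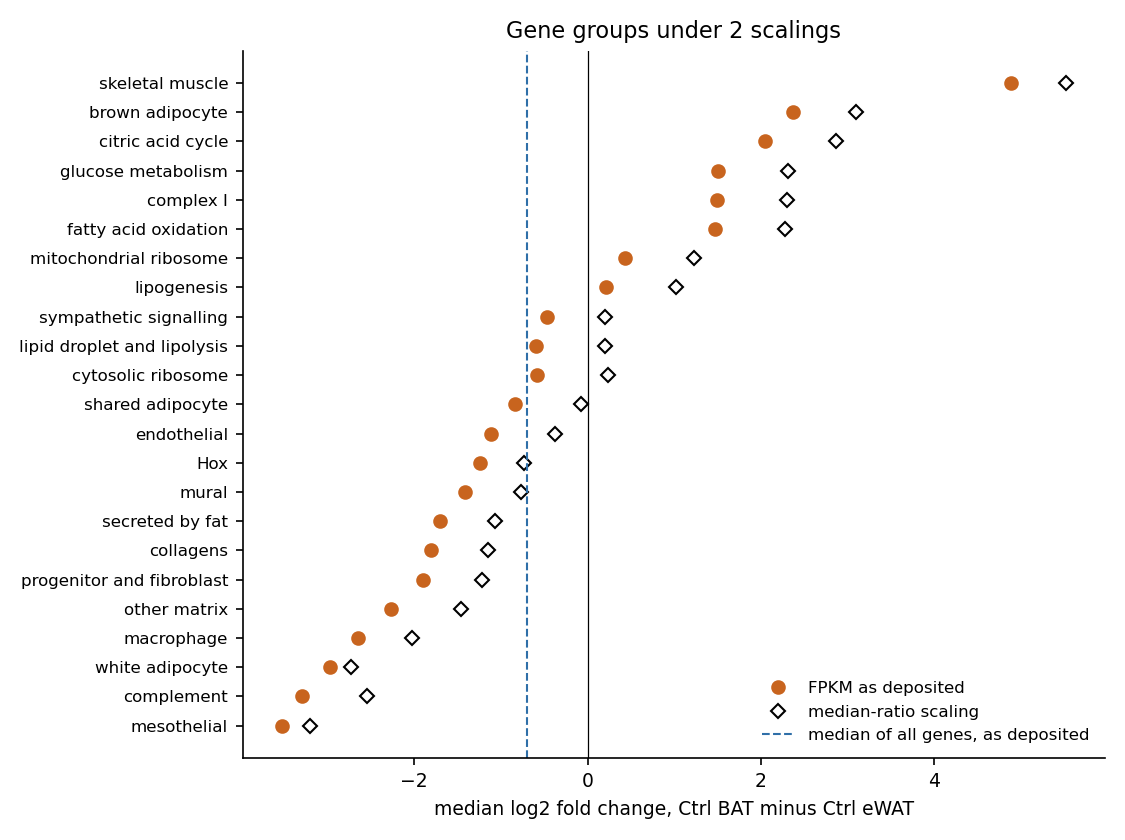
Median log2 fold change, Ctrl BAT minus Ctrl eWAT, of 23 gene groups with FPKM as deposited (filled circles) and after median-ratio scaling (open diamonds), with the median of all genes as deposited at -0.69 (dashed). Muscle, brown adipocyte and metabolic groups stay above 0 and mesothelial, complement, white adipocyte and macrophage groups below 0 under both, while sympathetic signalling, lipid droplet and cytosolic ribosome change sign.

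Ranked over all genes with non-overlapping libraries, the 15 with the largest difference in favour of brown fat were 5 brown adipocyte genes (Ucp1, Cox7a1, Fabp3, Cidea and Cpt1b) and 10 genes of the muscle list. The muscle genes were Tnnt3, Atp2a1, Ckm, Tnni2, Pvalb, Myh4, Tnnc2, Tcap, Mylpf and Mb. Of the 15 at the other end, the 4 mitochondrial genes, Slpi and Upk3b were listed at 0 in brown fat, so that their place is not read. The others were Agt, Sncg and Nnat, given above, and Sult1e1, an oestrogen sulfotransferase, with 0.112 and 1.32 FPKM in Ctrl BAT, against 47.7, 62.8 and 94.3 FPKM in Ctrl eWAT (log2 fold change -5.38, SE 0.366, adjusted p = 3.98e-05). Penk, which encodes enkephalin precursors, had 0.808 and 2.66 FPKM in Ctrl BAT, against 70.9, 105 and 116 FPKM in Ctrl eWAT (log2 fold change -5.23, SE 0.325, adjusted p = 3.16e-05). Lbp, which binds bacterial lipopolysaccharide, had 0.709 and 2.11 FPKM in Ctrl BAT, against 86.6, 77 and 89.9 FPKM in Ctrl eWAT (log2 fold change -5.21, SE 0.244, adjusted p = 1.26e-05). Retnla, Lyz1 and Ccl21b completed the 15, and Lyz1 and Ccl21b have close paralogs with which reads could be shared.

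The same depots from the mice labelled HuR-FKO gave a second set of libraries that shares none with the controls. Elavl1 was not lower in them than in controls, at 8.98 and 8.17 FPKM in BAT and 13.9, 15.4 and 13.3 FPKM in eWAT labelled HuR-FKO, against 8.34 and 7.36 FPKM in Ctrl BAT and 13.6, 13.8 and 12.2 FPKM in Ctrl eWAT, so the deletion cannot be read from its FPKM here. The study reported the lack of HuR in both of these depots by real-time PCR and western blot. Of 12434 genes tested between these depots, 1163 were higher in BAT (9.35%) and 8724 lower in BAT (70.2%), with a median of -0.75. Of the 1200 genes higher in Ctrl BAT, 1126 were tested there, 1100 had the same sign and 967 were called in the same direction, while 3 were called in the opposite one. Of the 8226 lower in Ctrl BAT, 8145 were tested, 7702 were called in the same direction and 2 in the opposite one. Ucp1 had 1165 and 1000 FPKM in BAT and 0.0717, 0.881 and 0.175 FPKM in eWAT labelled HuR-FKO (log2 fold change 9.66), and Lep had 12.8 and 14.2 FPKM and 501, 268 and 203 FPKM (log2 fold change -4.38). A test of the difference itself, the interaction of depot and label over the 10 libraries, called 2 of 12657 genes (0.0158%), both with a lower BAT minus eWAT difference in the libraries labelled HuR-FKO. This count rests on few libraries, with 71 genes called without Ctrl BAT replicate 2 and 0 without Ctrl eWAT replicate 2, Ctrl eWAT replicate 3 or BAT replicate 2 labelled HuR-FKO. At an unadjusted p under 0.05 in limma, 213 of the 12657 genes had a higher and 557 a lower difference. Where no gene differs, a share of about 0.05 of genes passes that threshold, so these are not read as calls.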

How the data were processed

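The authors deposited 1 table of FPKM values, aligned to mm10 with TopHat2 2.0.11 and quantified with Cufflinks 2.1.1 from strand-specific paired-end reads, per the submitters' processing notes and the study's methods. No scaling between libraries is stated, and the annotation release and the strand setting of the counting are not given in the sources used here. GENCODE vM21 held 36464 of the 38371 gene IDs, 21110 of them as protein-coding. Libraries were grouped by their labels.

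Protein-coding genes entered when either group averaged above 1 FPKM, and log2(FPKM + 1) was fitted with limma 3.58.1 in R 4.3.3 (lmFit, eBayes with a trend), two-sided, with Benjamini-Hochberg adjustment over all genes and a threshold of 0.05. The design is unpaired. The scripts were tested on simulated data. Depth was estimated from low values of genes with 1 transcript of at least 3000 bases, at an assumed fragment length of 200 and a tolerance of 0.05 (log2). The replicates are pools of 3 mice, and FPKM gives no counts, so no count test or counting interval was used. Promoters come from the RefSeq table of GRCm38.p6, in which 9226 of 12458 tested genes were matched.

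The genes, lists and tests were chosen with earlier results of these data known. Genes named were, per list, up to 4 with the largest log2 fold change in each direction and up to 2 of the highest level without a call, the 15 largest in each direction over all genes (libraries not overlapping, predicted models left out), those with an interaction, Elavl1, Ucp1, Cidea, Lep, Adipoq, Pparg, Fabp4 and the isoform pairs. Otop1, Ppargc1a, Prdm16, Ebf2, Shox2, Fasn and Hsd17b4 were chosen after their values were seen. Alternatives were a pseudocount of 0.1, no minimum and a minimum of 5 FPKM, median-ratio scaling, scaling to the sum of nuclear genes with and without muscle and blood genes, all gene types, a replicate block, 1 fit of all 16 libraries, no trend, a log2 fold change of at least 1, a promoter window without transcribed bases, and leaving out each library in turn. Same-numbered libraries of the 2 depots are not stated to share mice. No row was used here for Cox4i1 and Acta1, and a few genes that the rule names are not reported here.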

Additional observations from a re-analysis of the deposited data

Results flagged for a closer look

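For 2 genes the BAT minus eWAT difference itself differed between the libraries labelled HuR-FKO and Ctrl in the interaction test of limma over 10 libraries. Smyd1, a methyltransferase of striated muscle, had 4.09 and 4.48 FPKM in BAT and 5.65, 4.12 and 6.76 FPKM in eWAT labelled HuR-FKO, against 9.28 and 6.08 FPKM in Ctrl BAT and 0.840, 0.930 and 0.578 FPKM in Ctrl eWAT. The difference of differences was -2.55 on the log2 scale (SE 0.294, adjusted p = 0.0345 from limma), and the eWAT libraries moved further than the BAT libraries. The predicted gene Gm20458 (mm10 chromosome 2, 164460967 to 164490760) was near 0 in all 4 BAT libraries, and it had 2.13, 2.43 and 2.26 FPKM in eWAT labelled HuR-FKO, against 0.00760, 0.000294 and 0.00189 FPKM in Ctrl eWAT. Its difference of differences was -1.70 (SE 0.184, adjusted p = 0.0345 from limma). Neither call held with median-ratio scaling, the replicate block or 1 fit of 16 libraries, under each of which the interaction called 0 genes. It also called 0 with a minimum of 5 FPKM, where Gm20458 was not tested because its level lies below that minimum. Gm20458 overlaps other genes at its locus, between which the quantification could split reads. Groups of 2 and 3 libraries are too small for a test of single outlying libraries.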

How the results depend on the processing

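Scale moved the counts between depots most. With median-ratio scaling 3233 genes were higher and 3322 lower in Ctrl BAT, and 3465 higher and 3489 lower in BAT labelled HuR-FKO. With libraries set to the same sum over nuclear genes, 1701 were higher and 5772 lower in Ctrl BAT (22.8% of calls higher), and 1904 were higher in BAT labelled HuR-FKO. Leaving muscle and blood genes out of that sum gave 1740 and 5653 in Ctrl BAT, and 1915 and 5792 with the label HuR-FKO. A log2 fold change of at least 1 was reached by 659 and 3982 in Ctrl BAT and by 587 and 4223 with the label HuR-FKO. The interaction called 5 genes with no minimum level, 7 over all gene types, 1 with the nuclear sum without muscle and blood, and 0 with a minimum of 5 FPKM, with median-ratio scaling, in 1 fit of 16 libraries and with the replicate block. Leaving out 1 library gave 1017 to 1159 higher and 7483 to 7736 lower genes in Ctrl BAT, 949 to 1150 higher and 7312 to 8955 lower with the label HuR-FKO, and 0 to 71 in the interaction. Under every such omission of a library, 865 of the 1200 higher and 6607 of the 8226 lower calls were kept.

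The libraries of the depots share replicate numbers only. Same-numbered pairs correlated at 0.012 and 0.065 after group means were removed, against -0.065 to 0.052 for other pairs. With the group mean removed, however, the Ctrl BAT libraries are exact mirror images of each other. Every correlation therefore recurs with the opposite sign, and whether same-numbered libraries are paired cannot be read from these values. With the replicate block, 1092 genes were higher and 7549 lower in Ctrl BAT.

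Of 58 gene groups, 46 kept the sign of their median under every alternative. With median-ratio scaling the median turned to 0.21 for lipid droplet and lipolysis, 0.68 for acyl-CoA thioesterases, 0.20 for sympathetic signalling, 0.63 for cholesterol, 0.53 for nerve and Schwann cells, 0.37 for circadian genes, 0.26 for antioxidant genes, 0.43 for the integrated stress response, 0.33 for heme and iron, 0.23 for the cytosolic ribosome and 0.69 for SLC25 carriers. With the nuclear sum, with and without muscle and blood genes, it turned to 0.22 and 0.23 for thioesterases, 0.19 and 0.21 for cholesterol, 0.48 and 0.49 for nerve and Schwann cells, and 0.23 and 0.25 for SLC25 carriers. With a minimum of 5 FPKM it turned to 0.22 for thioesterases and 0.12 for cholesterol. Without 1 library the medians ranged from -0.031 upward for branched-chain amino acid breakdown (lowest without Ctrl BAT replicate 2), from -0.14 to 0.23 for thioesterases, from -0.16 to 0.17 for cholesterol, from -0.59 to 0.37 for nerve and Schwann cells, from -0.82 to 0.10 for the integrated stress response and from -0.15 to 0.080 for SLC25 carriers.

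Of 178 named genes with a call, 156 kept direction and call under every alternative. Median-ratio scaling turned the log2 fold change to 0.30 for Nrg4, 0.18 for Cox4i2, 0.059 for Cox6b2, 0.73 for Pparg, 0.61 for Hoxa5, 0.69 for Kdr, 0.78 for Rgs5, 0.063 for Elavl1, 0.20 for Ehhadh, 0.34 for Acaa1a and 0.40 for Hsd17b4. Of these, Pparg, Hoxa5, Kdr, Rgs5, Acaa1a and Hsd17b4 were called higher in Ctrl BAT on that scale. In a promoter window of the 250 bases before the start alone, the NRF1 core was held by 9.28% of the higher respiratory, citric acid cycle and fatty acid oxidation genes and by 3.34% of tested genes. FPKM without counts limits what can be said of genes near 1 FPKM, and the cause of the shift between depots was not tested.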

Other observations

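Gene groups outside the comparisons above were mixed. Of 23 genes of cholesterol synthesis and transport, 6 were higher and 7 lower in Ctrl BAT, with a median log2 fold change of -0.12 that turned positive under several scalings, and 13 were higher and 4 lower after median-ratio scaling. Among the higher ones, Insig1, which holds back sterol and fatty acid synthesis, had 184 and 194 FPKM in Ctrl BAT, against 108, 74.1 and 74.3 FPKM in Ctrl eWAT (log2 fold change 1.16, SE 0.187, adjusted p = 0.00115). Fdps, an enzyme of the sterol pathway, had 81.7 and 65.5 FPKM in Ctrl BAT, against 44.1, 19.8 and 22.8 FPKM in Ctrl eWAT (log2 fold change 1.4, SE 0.318, adjusted p = 0.00553), and was not called without Ctrl BAT replicate 1 (adjusted p = 0.0604 from limma). Branched-chain amino acid breakdown had 10 of 26 genes higher and 3 lower (22 and 2 after median-ratio scaling), and the first transaminase, Bcat2, was lower, with 57.1 and 63.4 FPKM in Ctrl BAT, against 143, 261 and 205 FPKM in Ctrl eWAT (log2 fold change -1.7, SE 0.241, adjusted p = 0.000648). Acyl-CoA thioesterases had 3 of 9 higher and 3 lower (5 and 1 after median-ratio scaling), with Acot11 far above the rest.

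Among 17 immediate early genes 2 were higher and 11 lower (median -0.87), a share of lower genes near the 66% of all genes, and 3 were higher and 3 lower after median-ratio scaling. The higher Nr4a1, a nuclear receptor induced by cyclic AMP, had 14.1 and 10.6 FPKM in Ctrl BAT, against 3.58, 6.51 and 3.05 FPKM in Ctrl eWAT (log2 fold change 1.35, SE 0.276, adjusted p = 0.0034). Of 17 circadian genes 1 was higher and 5 lower (median -0.31), and 5 were higher and 2 lower after median-ratio scaling. The largest lower one was Per1, with 13.6 and 11.5 FPKM in Ctrl BAT, against 29.5, 36.5 and 34.4 FPKM in Ctrl eWAT (log2 fold change -1.34, SE 0.145, adjusted p = 0.0002). The time of day of collection is not given in the labels, so depot and time cannot be told apart there. Of 10 neutrophil and mast cell genes 1 was higher and 8 lower (1 and 3 of 9 after median-ratio scaling), and the higher one was Kit, with 5.64 and 12 FPKM in Ctrl BAT, against 2.0, 2.62 and 2.27 FPKM in Ctrl eWAT (log2 fold change 1.5, SE 0.276, adjusted p = 0.00211). Uchl1, of neurons, was the lowest nerve gene, with 0.0771 and 0.757 FPKM in Ctrl BAT, against 5.94, 4.61 and 9.99 FPKM in Ctrl eWAT (log2 fold change -2.45, SE 0.323, adjusted p = 0.000465).

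Interferon genes were lower for 19 of 23 (median -0.77), and for 4 of 23 after median-ratio scaling. Chemokines were lower for 12 of 14 and higher for 1 (median -1.94; 9 and 1 after median-ratio scaling), B cell genes for 3 of 3 (median -0.93; 2 of 2) and blood genes for 3 of 4 (median -0.83; 1 of 5). Angiogenic ligands were lower for 15 of 18 and higher for 1 (median -1.17; 8 and 2 after median-ratio scaling), and steroid and glucocorticoid genes for 10 of 16 and higher for 1 (median -0.96; 7 and 3). Heme and iron genes were lower for 11 of 21 and higher for 1 (median -0.39), below the 66% of all genes, and 3 were lower and 9 higher after median-ratio scaling. Genes of the integrated stress response were lower for 7 of 17 and higher for 2 (median -0.31), and 3 were lower and 5 higher after median-ratio scaling. Mitochondrial biogenesis and dynamics had 14 of 24 genes higher and 4 lower (median 0.58; 20 and 0 after median-ratio scaling), with Fis1, of mitochondrial fission, the lowest at -0.82 (and -0.011 after median-ratio scaling). Mitochondrial calcium handling had 4 of 12 higher and 3 lower (median 0.17; 10 and 2 after median-ratio scaling), and heat shock genes 6 of 20 higher and 3 lower (median 0.19; 15 and 0).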
